A study of Anser cygnoides with 6 samples.

Results

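Of the 21009 gene models in the deposited mRNA table, 5 of the Hsp70 family were read here as members. They were chosen because their descriptions hold the family name HEAT SHOCK PROTEIN 70KDA. HSPA4, HSPA4L and HSPA12A models, whose descriptions are worded otherwise, were not taken as members. Any Hsp70 family wording occurs in 16 models, and the sums, shares and order of levels below cover the 5 members alone. The members were 1 cytosolic-type model, 1 model named as the endoplasmic reticulum chaperone BiP, and 3 other members, namely a DnaK-type model, HSPA13 and HSPA14. The lion-head geese were 3 high-intake-fed birds and 3 normally-fed birds, and liver RNA of each bird gave 1 library. All birds were 120 days old when feeding began and were fed for 38 days. High-intake-fed birds were force-fed several meals a day, at first of 200 g and then of 300 g, with boiled rice in the diet, and normally-fed birds ate at will. Both groups came from one purebred population, drank freely and were without feed overnight before sacrifice. Each group was kept in its own isolator, so feeding and housing cannot be told apart. The sources used here do not give the sex of the sequenced birds.

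Hsp70 proteins are chaperones that bind exposed stretches of unfolded proteins and release them in a cycle driven by ATP. J-domain proteins bring them their substrates and start ATP hydrolysis, and nucleotide exchange factors such as GrpE, BAG and Hsp110 proteins let the ADP go. Cytosolic members fold new and damaged proteins, and some are constitutive while others are induced by heat shock factors. BiP folds secreted proteins and holds the sensors of the unfolded protein response, and mitochondrial members pull imported proteins into the matrix. The liver, which secretes most plasma proteins, is rich in BiP.

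The cytosolic-type Hsp70 model (maker-Hic_scaffold_26-augustus-gene-38.5) lay at chr26:3818042-3821986 on the plus strand and had a coding length of 1944 bases. Its description names the family and no compartment, and the table does not say whether it is a constitutive or an inducible Hsp70. BiP (maker-Hic_scaffold_23-augustus-gene-12.9) lay at chr23:1261891-1266133 on the plus strand, with 2079 coding bases and Reactome terms for the IRE1, PERK and ATF6 arms of the unfolded protein response. The DnaK-type model (maker-Hic_scaffold_16-augustus-gene-139.2) lay at chr16:13887105-13909932 on the plus strand and had 2391 coding bases. It matched bacterial DnaK and carried Reactome terms for mitochondrial import and cristae formation, the terms of a mitochondrial Hsp70. HSPA13 (maker-Hic_scaffold_1-augustus-gene-1348.5), at chr1:134828413-134834251 on the minus strand, had 1419 coding bases, and in mammals this protein is a microsomal ATPase. HSPA14 (maker-Hic_scaffold_1-augustus-gene-2092.11), at chr1:209255008-209266266 on the minus strand, had 1641 coding bases, and in mammals it works at the ribosome together with the J-domain protein DNAJC2. The descriptions of 4 members hold the DnaK substrate binding fold, and that of HSPA13 does not. All 5 carried the Reactome term for regulation of the heat shock response by HSF1. No member overlapped another gene model. The sources used here name no genome build for these positions.

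Libraries held 14154910 to 16993373 counts. Unless another unit is named, values are CPM, that is, counts brought to a common library size with TMM scaling factors. A low count filter kept 12914 models, on which edgeR's quasi-likelihood test was run with Benjamini-Hochberg adjustment over the whole set. The words rose and fell are kept for an adjusted p under 0.05. All 5 members passed the filter. The median log2 fold change of all tested models was 0.04. High-intake-fed replicate 3 stood apart on the second principal component, at 57.7 against -24.4 to 8.41 for the other 5 libraries. On the first component high-intake-fed replicates 1, 2 and 3 lay at 33.4, 52.1 and 18.3, against -35.6, -33.9 and -34.3 for the normally-fed birds. On the first component alone, replicate 3 was thus the high-intake-fed bird nearest to the normally-fed ones, and replicate 2 was the farthest. Replicate 3 was also the lowest of its group in BiP and the cytosolic-type Hsp70, so leaving it out raises their change. Calls of members and named partners that change without it are given both ways. Liver identity was checked with hepatocyte mRNAs, of which albumin was listed at 181606, 70703 and 178789 CPM in high-intake-fed birds and at 163787, 179702 and 242532 CPM in normally-fed birds.

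BiP rose in high-intake-fed livers, and the cytosolic-type Hsp70 model was higher in every high-intake-fed bird without passing the test. The DnaK-type model, HSPA13 and HSPA14 did not pass the test, and their groups overlapped. Thus 1 of the 5 members was called, against 0.643% of all tested models called higher, and 2 of the 5 had groups that did not overlap, against 11.1% of all tested models that lay wholly higher in high-intake-fed birds. Of the 12914 tested models 190, or 1.47%, were called in either direction, and 8.67% had an unadjusted p under 0.05 and were higher. Fewer cells of a type and less RNA per cell cannot be told apart in these whole-liver libraries.

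BiP was at 1694, 1868 and 1165 CPM in high-intake-fed replicates 1, 2 and 3, against 356, 544 and 433 CPM in normally-fed replicates 1, 2 and 3. The lowest high-intake-fed bird, replicate 3, stood above the highest normally-fed bird, replicate 2. The means were 1576 ± 366 CPM in high-intake-fed and 444 ± 94.6 CPM in normally-fed geese (SD, n = 3 each), a log2 fold change of 1.83 ± 0.32 (SE) with an adjusted p of 0.0426 by edgeR's quasi-likelihood test. An exact permutation test (two-sided) gave p = 0.1, the smallest value that 3 birds against 3 allow. The level was 3.81, 4.21 and 2.62 times the normally-fed mean in high-intake-fed replicates 1, 2 and 3.

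The BiP call lay close to the threshold. High-intake-fed replicate 3, which stood apart on the second principal component only, was also the lowest high-intake-fed bird in BiP. With it left out, the log2 fold change was 2.01 and the adjusted p by edgeR's quasi-likelihood test was 0.0227. Leaving out any other bird kept the log2 fold change between 1.69 and 2.03 and lost the call. The adjusted p was then 0.0878 for high-intake-fed replicate 1 and 0.0561 for replicate 2 of that group. For normally-fed birds 1, 2 and 3 it was 0.189, 0.165 and 0.199. The change was above 0 in all 16 alternatives run and past the threshold in 9 of them.

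The cytosolic-type Hsp70 was the most abundant member and also the most uneven among the high-intake-fed birds. It was at 3256, 6028 and 1933 CPM in high-intake-fed replicates 1, 2 and 3, against 828, 966 and 950 CPM in normally-fed replicates 1, 2 and 3. Its groups did not overlap, and replicate 2 of the high-intake-fed birds was 3.12 times as high as replicate 3, while the normally-fed birds lay within 1.17 times of each other. The means were 3739 ± 2089 CPM in high-intake-fed and 915 ± 75.0 CPM in normally-fed geese (SD, n = 3 each). The log2 fold change was 2.03 ± 0.45 (SE), numerically above that of BiP, but the adjusted p was 0.0746 by edgeR's quasi-likelihood test (exact permutation p = 0.1, the smallest possible). Leaving out replicate 3, the lowest of the high-intake-fed birds, gave 2.35 with an adjusted p of 0.0261, where 2.38% of models were called higher. Leaving out replicate 2, the highest bird, gave 1.51 with an adjusted p of 0.0775. It also passed under DESeq2, which called 3.49% of models higher, and under edgeR's exact test, which called 2.89% higher, so that it passed in 3 of 16 alternatives.

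The 2 members differed in how far birds of a group lay apart, which is given as a description. On the log2 CPM scale the SD among high-intake-fed birds was 0.82 for the cytosolic-type Hsp70 and 0.36 for BiP, beside a median of 0.43 over all tested models. Of the tested models 17.6% varied more among the high-intake-fed birds than the cytosolic-type Hsp70, and 60.6% varied more than BiP. Among normally-fed birds the order was the other way round, with an SD of 0.12 for the cytosolic-type Hsp70 and 0.31 for BiP and a median of 0.25 over all tested models.

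**Figure D1:**
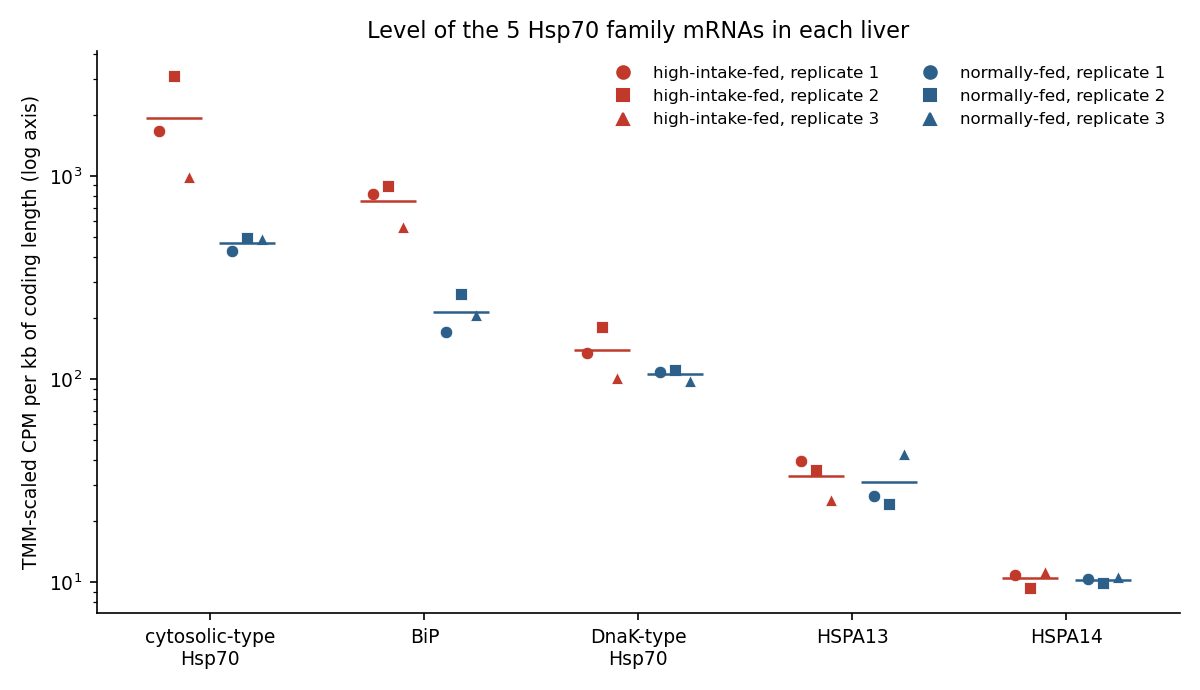
Level of each Hsp70 family mRNA in TMM-scaled CPM per kilobase of coding length, on a log axis, with 1 symbol per bird, a horizontal bar at each group's mean, high-intake-fed birds in red and normally-fed birds in blue. The red and blue symbols lie apart for the cytosolic-type Hsp70 (995 to 3101 against 426 to 497) and for BiP (560 to 899 against 171 to 262), and overlap for the other 3 members.

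The DnaK-type Hsp70, whose mitochondrial relatives in other animals drive protein import, was at 323, 435 and 243 CPM in high-intake-fed replicates 1, 2 and 3, against 260, 266 and 233 CPM in normally-fed replicates 1, 2 and 3. The lowest high-intake-fed bird, replicate 3, was within the range of the normally-fed birds, and the other 2 were above it. The means were 333 ± 96.5 CPM in high-intake-fed and 253 ± 17.5 CPM in normally-fed geese (SD, n = 3 each). The log2 fold change of 0.40 ± 0.28 (SE) had an adjusted p of 0.501 by edgeR's quasi-likelihood test and an exact permutation p of 0.3. It was 0.58 without high-intake-fed replicate 3 and did not pass in any of the 16 alternatives.

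HSPA13 was at 56.0, 50.5 and 36.1 CPM in high-intake-fed birds, against 37.6, 34.5 and 60.8 CPM in normally-fed birds. Both the lowest and the highest of these 6 values belonged to normally-fed birds. Its log2 fold change was 0.10 ± 0.28 (SE), with an adjusted p of 0.892 by edgeR's quasi-likelihood test and an exact permutation p of 0.9, and it went to either side of 0 among the alternatives (-0.03 to 0.43).

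HSPA14 was the least abundant and the steadiest member, at 17.9, 15.5 and 18.4 CPM in high-intake-fed birds, against 17.1, 16.3 and 17.4 CPM in normally-fed birds. The SD among high-intake-fed birds was 0.13 on the log2 scale, and 92.5% of the tested models varied more among them. Its log2 fold change was 0.02 ± 0.19 (SE), with an adjusted p of 0.961 by edgeR's quasi-likelihood test and an exact permutation p of 0.8. It ranged from -0.02 to 0.10 over the 16 alternatives. DNAJC2, its ribosomal partner, named here after its values were seen, had 32.6, 32.5 and 26.8 CPM in high-intake-fed birds and 26.0, 22.7 and 26.5 CPM in normally-fed birds, a log2 fold change of 0.29 with an adjusted p of 0.464 by edgeR's quasi-likelihood test.

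Levels of different genes were compared per kilobase of coding length. In each of the 6 birds the order was the cytosolic-type Hsp70, BiP, the DnaK-type Hsp70, HSPA13 and HSPA14, from high to low, and within each group no bird of one member reached the level of a neighbouring member in this order. The cytosolic-type Hsp70 averaged 1923 ± 1075 CPM per kb in high-intake-fed and 470 ± 38.6 CPM per kb in normally-fed geese (SD, n = 3 each). BiP averaged 758 ± 176 and 214 ± 45.5 CPM per kb in high-intake-fed and normally-fed geese, so that in every high-intake-fed bird BiP stood above the level that the cytosolic-type Hsp70 had in any normally-fed bird. The DnaK-type Hsp70 averaged 139.5 ± 40.3 CPM per kb in high-intake-fed and 106 ± 7.30 CPM per kb in normally-fed geese. HSPA13 averaged 33.5 ± 7.22 CPM per kb in high-intake-fed and 31.2 ± 10.1 CPM per kb in normally-fed geese, and HSPA14 10.5 ± 0.950 CPM per kb in high-intake-fed and 10.3 ± 0.328 CPM per kb in normally-fed geese. On the deposited FPKM values the order was the same in all 6 birds.

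Together the 5 members took 0.485%, 0.807% and 0.389% of the counts of high-intake-fed replicates 1, 2 and 3, against 0.159%, 0.188% and 0.155% in normally-fed replicates 1, 2 and 3 (exact permutation p = 0.1, the smallest possible). The cytosolic-type Hsp70 made up 62.6%, 73.4% and 58.7% of the summed CPM per kb of the 5 members in high-intake-fed birds. In normally-fed birds it made up 57.4%, 54.9% and 57.6%. BiP made up 30.5%, 21.3% and 33.1% in high-intake-fed birds, against 23.0%, 28.9% and 24.6% in normally-fed birds, and these groups overlapped. The DnaK-type share was 5.04%, 4.30% and 6.00% in high-intake-fed birds, against 14.6%, 12.3% and 11.5% in normally-fed birds. Shares of one sum depend on each other, and the DnaK-type model, HSPA13 and HSPA14 did not pass the test in CPM.

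**Figure D2:**
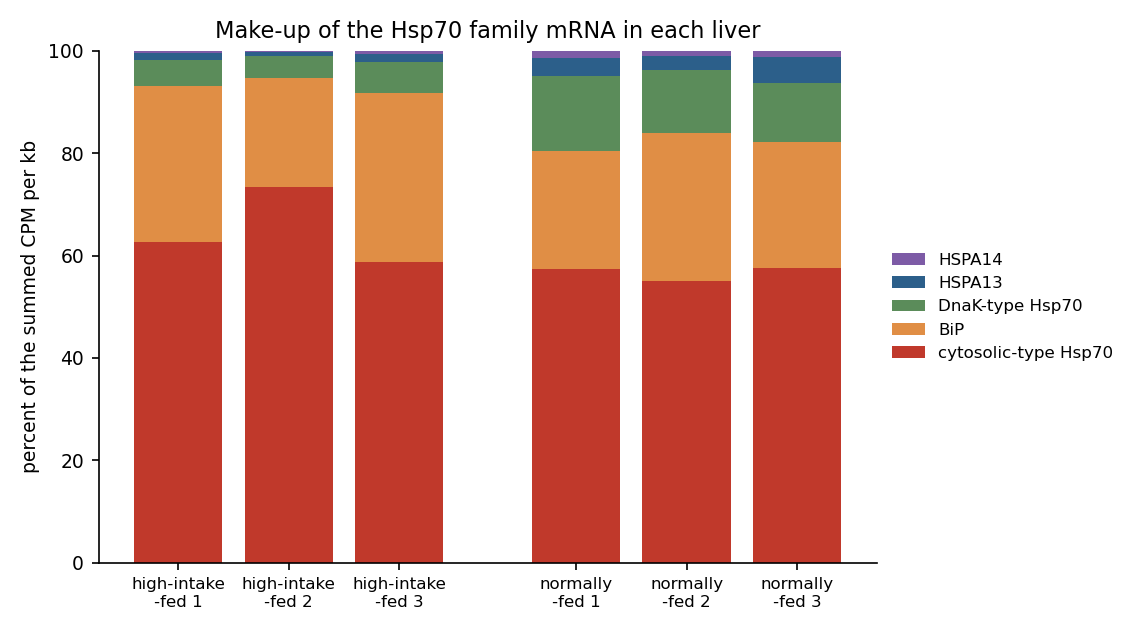
Share of each member in the summed CPM per kb of the 5 Hsp70 family mRNAs, in percent, with 1 stacked bar per bird. The cytosolic-type Hsp70 and BiP fill most of every bar, and the DnaK-type share is 4.30% to 6.00% in high-intake-fed birds, against 11.5% to 14.6% in normally-fed birds.

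Whether the members changed to a different extent was asked within each bird, from the log2 difference between 2 members, which leaves out the depth and scaling of the library. All 10 pairs were compared. The cytosolic-type Hsp70 exceeded BiP by 0.94, 1.69 and 0.73 log2 CPM in high-intake-fed replicates 1, 2 and 3, and by 1.22, 0.83 and 1.13 log2 CPM in normally-fed replicates 1, 2 and 3. The groups overlapped, the mean difference between the groups was 0.06 and the exact permutation p was 0.9. A different change of the cytosolic-type Hsp70 and BiP was thus not detectable with these birds. The mean difference depended on the birds, at -0.22 to 0.26 over its alternatives.

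BiP exceeded the DnaK-type Hsp70 by 2.39, 2.10 and 2.26 log2 CPM in high-intake-fed birds, against 0.45, 1.03 and 0.89 log2 CPM in normally-fed birds. These groups lay far apart, by 1.46 on average, and the SD among high-intake-fed birds was 0.14. BiP minus HSPA13 was as even, at 4.92, 5.21 and 5.01 log2 CPM in high-intake-fed birds, against 3.24, 3.98 and 2.83 log2 CPM in normally-fed birds. In all, 6 of the 10 pairs had groups that did not overlap, namely the cytosolic-type Hsp70 and BiP each against the DnaK-type model, HSPA13 and HSPA14, with mean differences of 1.46 to 1.86. Each of the 6 had an exact permutation p of 0.1, the smallest that 3 birds against 3 allow, and 0.167 after adjustment over the 10 pairs, so that none could pass the threshold in this design. The pairs share members and are not independent of each other. These 6 set the 2 members whose own groups did not overlap against the 3 whose groups did, so their count largely restates that result. The share of such pairs among all tested models was not determined. The 3 pairs among the DnaK-type model, HSPA13 and HSPA14 overlapped, with mean differences of 0.10 to 0.34 and exact permutation p of 0.5 to 1.

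**Figure D3:**
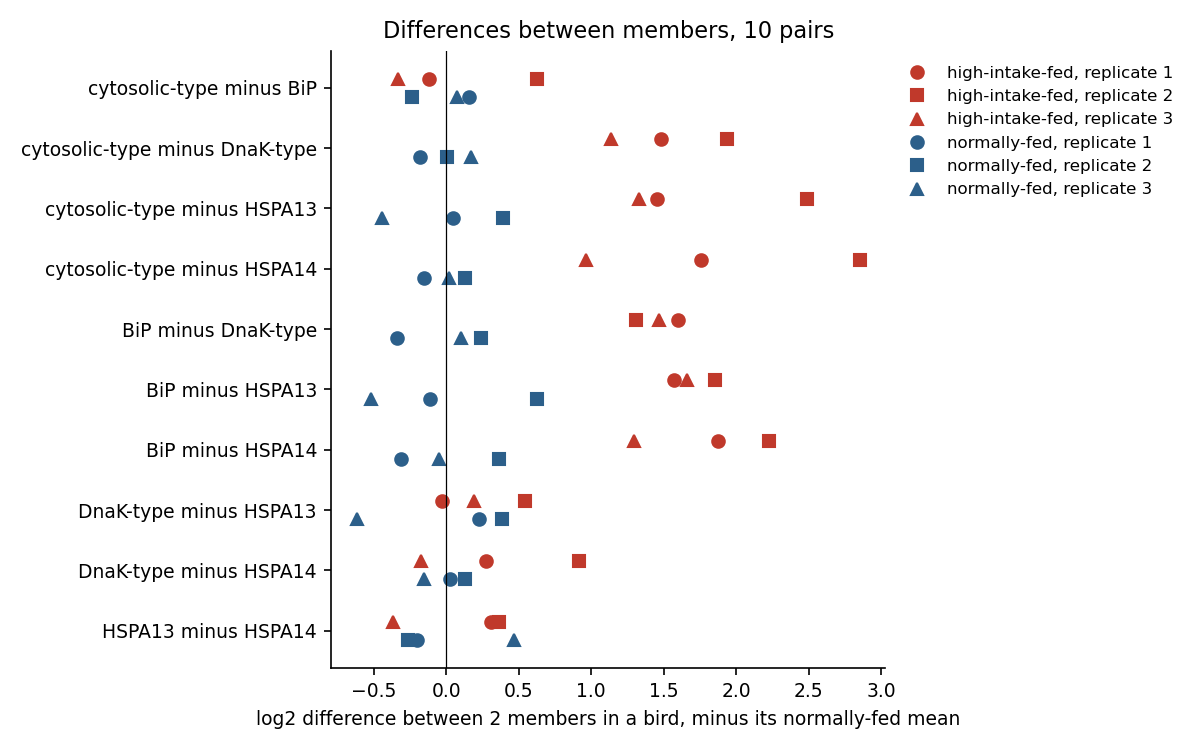
Log2 CPM of the first member minus that of the second in each bird, shifted so that the normally-fed mean is 0, for the 10 pairs of members, with high-intake-fed birds in red above normally-fed birds in blue. In the 6 pairs that set the cytosolic-type Hsp70 or BiP against another member, the red symbols lie wholly to the right of the blue ones, and in the other 4 pairs they overlap.

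The word partners here covers lists of J-domain proteins, exchange factors, other chaperones, co-chaperones of Hsp90 and regulators. These lists held 131 models in all, of which 99 were tested. Of these 99 models 1 was called, or 1.01%, against 1.47% of all tested models. The 99 include 8 models of unfolded protein response signalling, a list added after the descriptions had been read, which holds the called model. They also include 3 further models with Hsp70 wording. Of the 43 tested J-domain proteins none was called by edgeR's quasi-likelihood test. At an unadjusted p under 0.05, 15 of them were higher, against 8.67% of all tested models. DESeq2 called 7 of them higher, against 3.49% of all models, and edgeR's exact test called 4, against 2.89%. Their median log2 fold change was 0.52, and 0.28 when high-intake-fed replicate 2 was left out, against 0.04 over all tested models. Read against the same shares of all models, none of the 12 exchange factors was called, with 5 higher at the unadjusted p, 4 by DESeq2 and 2 by the exact test, and a median of 0.30. None of the 12 tested other heat shock chaperones was called, with 6 higher at the unadjusted p, 4 by DESeq2 and 5 by the exact test. Their median was 0.54, and 0.33 when high-intake-fed replicate 2 was left out. Among 12 models of endoplasmic reticulum folding and 4 co-chaperones of Hsp90, 2 of each list were higher at the unadjusted p and 0 were called by any of the 3 tests. The median of the co-chaperones was 0.39. That of the endoplasmic reticulum list was 0.28, and it was 0.01 when high-intake-fed replicate 1 was left out and 0.51 when replicate 3 was left out. The 5 tested heat shock factors gave 0 at either threshold and by each test, and their median of 0.26 went from -0.01 to 0.63 with a bird left out. Leaving out high-intake-fed replicate 3 gave 15 called partners, all of them higher, where 2.38% of all models were called higher.

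Several partners of the cytosolic Hsp70 were by far highest in high-intake-fed replicate 2. BAG3, an exchange factor that hands substrates to autophagy, was at 85.3, 860 and 27.2 CPM in high-intake-fed replicates 1, 2 and 3, against 9.63, 12.4 and 11.5 CPM in normally-fed birds. Its groups did not overlap, and high-intake-fed replicate 2 was far above the other birds. The log2 fold change was 4.86 ± 1.19 (SE) with an adjusted p of 0.0953 by edgeR's quasi-likelihood test. It was 2.33 without high-intake-fed replicate 2 and 5.40, with an adjusted p of 0.0327, without replicate 3.

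HSPA4, an Hsp110-type exchange factor, was at 476, 1975 and 136 CPM in high-intake-fed birds, against 104, 104.7 and 106 CPM in normally-fed birds. The 3 normally-fed birds were nearly equal and the high-intake-fed birds all lay above them, with a log2 fold change of 3.04 and an adjusted p of 0.122 by edgeR's quasi-likelihood test. Its relative HSPA4L had 550, 627 and 232 CPM in high-intake-fed birds, against 148, 185 and 242 CPM in normally-fed birds, and its groups overlapped (log2 fold change 1.29, adjusted p = 0.154 by edgeR's quasi-likelihood test). The 2 HSPH1 models, also of the Hsp110 type, had log2 fold changes of 1.94 and 1.39 with adjusted p of 0.173 and 0.252 by edgeR's quasi-likelihood test, and both overlapped between groups. In the fit that leaves out high-intake-fed replicate 3, HSPA4 and HSPA4L passed, with adjusted p of 0.0307 and 0.0323, and HSPA4 was at 1.55 when replicate 2 was left out.

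Among J-domain proteins, which choose the substrates of Hsp70, the smallest p belonged to DNAJC7, DNAJA4 and DNAJB1. DNAJC7, which passes clients between Hsp70 and Hsp90, was at 59.7, 64.9 and 47.6 CPM in high-intake-fed birds, against 28.5, 33.4 and 31.0 CPM in normally-fed birds, with a log2 fold change of 0.89 ± 0.20 (SE) and an adjusted p of 0.0750 by edgeR's quasi-likelihood test. DNAJA4 was at 402, 1046 and 58.9 CPM in high-intake-fed birds, against 39.8, 30.6 and 35.3 CPM in normally-fed birds, a log2 fold change of 3.83 with an adjusted p of 0.0816 by the same test. DNAJB1, the main heat-induced J-domain protein of the cytosol, was at 28.1, 335 and 18.0 CPM in high-intake-fed birds, against 6.84, 7.50 and 6.05 CPM in normally-fed birds, a log2 fold change of 4.22 with an adjusted p of 0.104 by the same test. All 3 had groups that did not overlap, and DNAJC7 was the even one, while the other pair peaked in high-intake-fed replicate 2. Leaving out high-intake-fed replicate 3 gave adjusted p of 0.0322 for DNAJC7, 0.0130 for DNAJA4 and 0.0463 for DNAJB1. Leaving out replicate 2 gave log2 fold changes of 2.71 for DNAJA4 and 1.76 for DNAJB1, the last with an adjusted p of 0.0397.

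The partners that are known to serve one compartment were then set side by side. This grouping was made after the values were seen. It used partner names in the descriptions, so a partner without such a name was not placed and the sets may be incomplete. The 17 tested partners of cytosolic Hsp70 had a median log2 fold change of 1.01, which was 0.64 without high-intake-fed replicate 2 and 1.24 without replicate 3, and 10 of them lay wholly higher in high-intake-fed birds, against 11.1% of all tested models. Their median over the normally-fed mean was 0.84, 1.54 and 0.38 log2 CPM in high-intake-fed replicates 1, 2 and 3. In 13 of the 17, high-intake-fed replicate 2 was the highest of its group, as it was in 32% of all tested models. The 5 models placed as partners of BiP were SEC63, DNAJC3, ERdj5 and 2 models of the exchange factor SIL1. The groups of all 5 overlapped, and their median was 0.27. This median was 0.10 without high-intake-fed replicate 1, 0.42 without replicate 3 and 0.16 without normally-fed replicate 1. SEC63, which recruits BiP to the translocon, had the highest log2 fold change of them, at 386, 538 and 209 CPM in high-intake-fed birds, against 195, 198 and 225 CPM in normally-fed birds (log2 fold change 0.88, adjusted p = 0.243 by edgeR's quasi-likelihood test). The 5 partners of mitochondrial Hsp70 had a median of 0.18, with the 2 GrpE-type exchange factors at 0.08 and 0.02 and the J-domain protein DNAJA3 at 0.82 (adjusted p = 0.167 by edgeR's quasi-likelihood test). With a bird left out this median went from 0.01 (normally-fed replicate 1) to 0.49 (high-intake-fed replicate 3), and it was 0.04 for high-intake-fed replicate 1 and 0.34 for normally-fed replicate 3. A difference between the compartments was not tested.

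**Figure D4:**
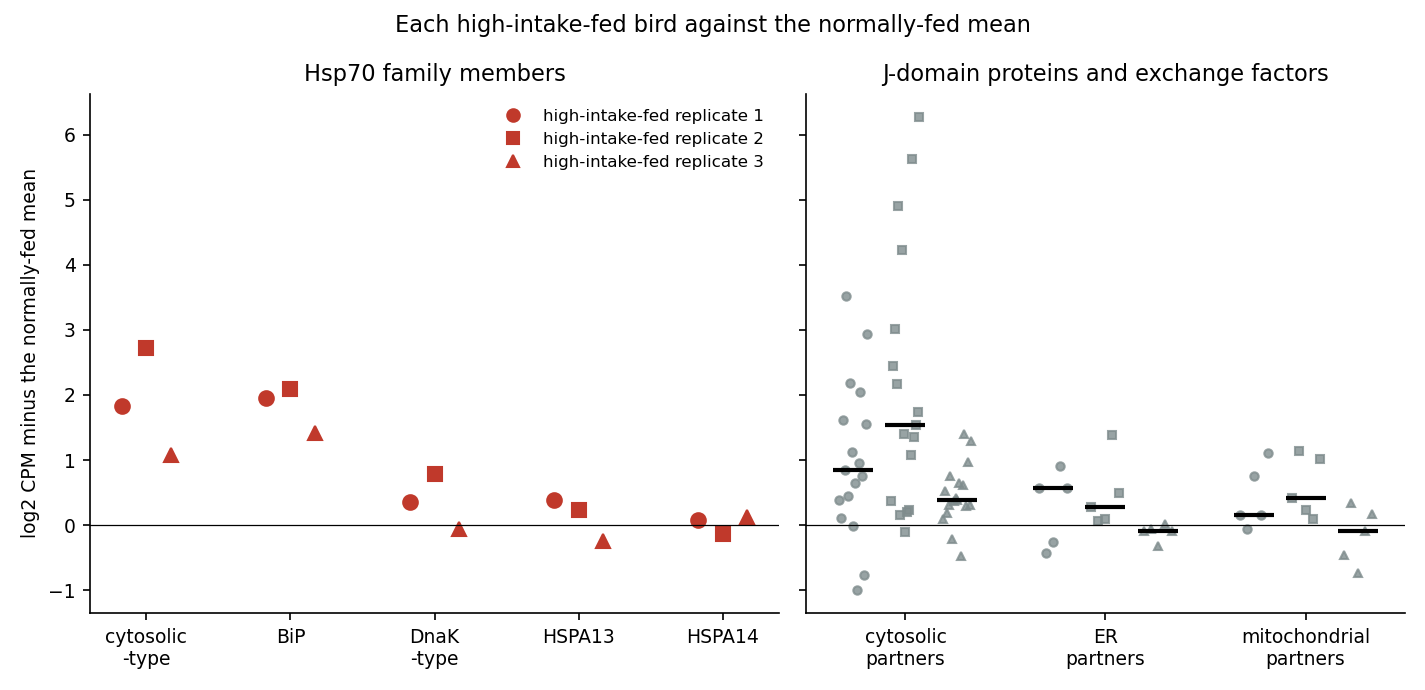
Log2 CPM of each high-intake-fed bird minus the normally-fed mean, for the 5 Hsp70 family members (left, red) and for the J-domain proteins and exchange factors of 3 compartments (right, grey, with a black bar at each bird's median), circles, squares and triangles being replicates 1, 2 and 3. BiP lies between 1.41 and 2.09 in the 3 birds and the cytosolic-type Hsp70 between 1.08 and 2.72, and the cytosolic partners reach their highest values in replicate 2.

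The single called partner was a model with the IRE1 kinase, ribonuclease and lumenal domains (chr18:17404078-17416949). IRE1 is a sensor of the unfolded protein response that BiP holds inactive. This low-abundance mRNA was at 5.14, 7.10 and 11.7 CPM in high-intake-fed birds, against 2.12, 1.89 and 1.87 CPM in normally-fed birds. It rose by a log2 fold change of 2.02 ± 0.37 (SE), with an adjusted p of 0.0459 by edgeR's quasi-likelihood test, and it was highest in high-intake-fed replicate 3, where BiP was lowest among the high-intake-fed birds. The call held in 7 of 16 alternatives, and on log2(FPKM + 1) the log2 fold change was 0.50 with an adjusted p of 0.153 by limma. Leaving out high-intake-fed replicate 2 lost it (adjusted p = 0.0657), as did leaving out each normally-fed bird (0.147 to 0.1798). The list of unfolded protein response signalling that holds it was added after the descriptions of the models had been read. Of its 8 tested models 1 rose, against 0.643% of all tested models called higher. Wholly higher in high-intake-fed birds were 3, against 11.1%, and 3 were higher at an unadjusted p under 0.05, against 8.67%. DESeq2 called 2 of them higher, against 3.49%, and edgeR's exact test 1, against 2.89%. In 7 the log2 fold change was above 0. The median was 0.42, and it ranged from 0.07 without high-intake-fed replicate 1 to 0.70 without replicate 2, with 0.25 and 0.63 without normally-fed replicates 1 and 3.

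The other IRE1 model, on chr20, was about as abundant in both groups, at 126, 109 and 84.9 CPM in high-intake-fed birds, against 88.0, 94.1 and 113 CPM in normally-fed birds (log2 fold change 0.12, adjusted p = 0.839 by edgeR's quasi-likelihood test). ATF4, the transcription factor downstream of PERK, was at 489, 317 and 326 CPM in high-intake-fed birds, against 142, 205 and 209 CPM in normally-fed birds. Its groups did not overlap, and the log2 fold change of 1.03 had an adjusted p of 0.125 by the same test. HERPUD1, a part of endoplasmic reticulum-associated degradation, was at 67.2, 51.3 and 54.2 CPM in high-intake-fed birds, against 28.3, 48.5 and 33.5 CPM in normally-fed birds, with a log2 fold change of 0.65 and an adjusted p of 0.224. XBP1, the factor made active by IRE1, overlapped between groups at 272, 109 and 162 CPM in high-intake-fed birds, against 97.4, 138.7 and 173 CPM in normally-fed birds. The sensor PERK was the only model of the list below 0, at 42.7, 24.1 and 43.7 CPM in high-intake-fed birds, against 42.1, 56.6 and 58.1 CPM in normally-fed birds (log2 fold change -0.51, adjusted p = 0.375 by the same test).

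BiP's companions in the endoplasmic reticulum did not pass the test. Endoplasmin, the Hsp90 of this compartment, was at 2421, 1631 and 1312 CPM in high-intake-fed birds, against 860, 1055 and 1097 CPM in normally-fed birds. Its groups did not overlap, and its log2 fold change of 0.83 ± 0.33 (SE) had an adjusted p of 0.234 by edgeR's quasi-likelihood test. A protein disulfide isomerase on chr2 had a log2 fold change of 0.65 (adjusted p = 0.282) and a SEC61 alpha isoform 2 model one of 1.03 (adjusted p = 0.174), by the same test, and in both the groups did not overlap. Of the 12 tested models of the list, these 3 had the smallest p. No others lay wholly higher, and 11.1% of all tested models did. The log2 fold change was above 0 in 9, and below 0 in an ERO1 model (-0.41), calmegin (-0.25) and an isomerase on chr20 (-0.06). High-intake-fed replicate 1 was the highest of its group in 11 of the 12, as in 28.1% of all tested models, while BiP was highest in replicate 2. Without high-intake-fed replicate 1 the log2 fold changes of endoplasmin and the chr2 isomerase were 0.55 and 0.43. Without replicate 3 that of the SEC61 alpha isoform 2 model was 0.59.

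Outside the 5 members, 3 further models with Hsp70 wording and no Hsp110 name were tested. One on chr26 (chr26:7627175-7641979), which holds an Hsp70 domain and no protein name, was at 532, 418 and 313 CPM in high-intake-fed birds, against 158, 169 and 227 CPM in normally-fed birds. Its groups did not overlap, and its log2 fold change of 1.19 ± 0.29 (SE) had an adjusted p of 0.0971 by edgeR's quasi-likelihood test, and of 0.0409 without high-intake-fed replicate 3. The 2 tested models named HSPA12A, distant relatives, had log2 fold changes of -1.11 and -0.80 with adjusted p of 0.224 and 0.236 by the same test.

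The heat shock factors, which switch on inducible cytosolic Hsp70 genes, were low. The HSF1 model on chr2 was at 2.78, 2.09 and 4.37 CPM in high-intake-fed birds, against 1.19, 2.24 and 1.67 CPM in normally-fed birds. HSF2, at 15.1, 13.1 and 20.8 CPM in high-intake-fed birds, against 20.2, 20.5 and 24.2 CPM in normally-fed birds, was the most abundant of the tested factors. HSF3, a factor known from birds, had a log2 fold change of 0.98 in the model with the smaller p, with an adjusted p of 0.370 by edgeR's quasi-likelihood test. The log2 fold change was 0.22 without high-intake-fed replicate 3. Every tested factor overlapped between groups.

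Of the 12 tested heat shock chaperones outside the Hsp70 family, 10 were highest in replicate 2 among the high-intake-fed birds and 2 in replicate 3. Of all tested models 32% were highest in replicate 2 and 39.9% in replicate 3. An HSPB8-like small heat shock protein, a partner of BAG3, was at 38.1, 208 and 31.6 CPM in high-intake-fed birds, against 8.36, 7.08 and 9.21 CPM in normally-fed birds (log2 fold change 3.49, adjusted p = 0.0645 by edgeR's quasi-likelihood test). An HSPB9-like model was at 279, 1034 and 31.3 CPM in high-intake-fed birds, against 7.24, 15.7 and 9.79 CPM in normally-fed birds (log2 fold change 5.36, adjusted p = 0.0667 by the same test). A cofactor of Hsp90, AHSA1, had a log2 fold change of 0.85 with an adjusted p of 0.129. In the fit that leaves out high-intake-fed replicate 3 all 3 passed, with adjusted p of 0.0337, 0.0155 and 0.0395. Leaving out replicate 2 gave 2.08 (adjusted p = 0.0146) for the HSPB8-like and 3.83 for this HSPB9-like model. A second HSPB9-like model overlapped between groups, at 2.43, 43.1 and 0.425 CPM in high-intake-fed birds, against 0.597, 0.236 and 0.451 CPM in normally-fed birds. Its adjusted p was 0.145 by edgeR's quasi-likelihood test, and 0.0504 without high-intake-fed replicate 3. The models with a Cdc37 Hsp90 binding domain had log2 fold changes of 0.55 and 0.23 (adjusted p = 0.249 and 0.724 by the same test).

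The mRNAs closest to each member over the 6 birds were sought among 4446 tested models with a protein name and a mean of at least 5 CPM, by the root mean square difference of log2 CPM values centred on their mean. For the cytosolic-type Hsp70 they were a perilipin (named adipophilin/perilipin, 0.12), the fatty acid elongase ELOVL1 (0.15) and the p97 cofactor p47 (0.24). The perilipin, which coats lipid droplets, was at 872, 1806 and 452 CPM in high-intake-fed birds, against 227, 278 and 238 CPM in normally-fed birds. BiP was closest to a schlafen model (0.20), to p47 (0.24) and to the proprotein convertase PCSK5 (0.25), and p47 was thus near both leading members. In this order the cytosolic-type Hsp70 was the eighth model from BiP (0.32), and BiP the thirteenth from the cytosolic-type Hsp70. For the DnaK-type model the closest were a model named ribosomal protein L35 (0.03), CNPPD1 (0.05) and one named transmembrane GTPase FZO1 (0.06). For HSPA13 they were the catalytic subunit of mitochondrial ribonuclease P (0.11), TM6SF1 (0.12) and an SSM4 protein (0.12), and for HSPA14 a HOOK protein (0.03), a WD40 repeat protein (0.05) and the proteasome adapter ECM29 (0.05). These distances are descriptions over 6 birds of 2 groups and depend on how far each mRNA moved.

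Marker mRNAs of hepatocytes and of other cell types were read beside these results. Of the 4 tested haemoglobin models none was called by edgeR's quasi-likelihood test (3 higher at an unadjusted p under 0.05, 2 called higher by DESeq2 and 2 by the exact test) and 3 lay wholly higher in high-intake-fed birds, against 11.1% of all models, with a summed level of 544 to 886 CPM in high-intake-fed and 209 to 369 CPM in normally-fed birds. Of the 7 hepatocyte models none was called by that test (3 lower at the unadjusted p, 2 called lower by DESeq2 and 1 by the exact test) and 4 lay wholly lower in high-intake-fed birds, with a summed level of 110499 to 257520 CPM in high-intake-fed and 237592 to 326892 CPM in normally-fed birds. Of all tested models 13.3% lay wholly lower, 9.71% were lower at the unadjusted p, 3.82% were called lower by DESeq2 and 3.38% by the exact test. Albumin made up most of the hepatocyte sum in every bird. A model named lactotransferrin was at 7210, 11622 and 5227 CPM in high-intake-fed birds, against 28190, 22910 and 25531 CPM in normally-fed birds. The fibrinogen gamma chain was at 7901, 2934 and 2905 CPM in high-intake-fed birds, against 14157, 11001 and 11360 CPM in normally-fed birds. The log2 fold change was above 0 in 1 of the 7 hepatocyte models. Of the 3 tested macrophage models, all named as macrophage mannose receptor 1, none was called by edgeR's quasi-likelihood test, and 1 was lower at the unadjusted p, by DESeq2 and by the exact test. That model was at 8.20, 12.2 and 10.5 CPM in high-intake-fed birds, against 43.7, 20.7 and 25.9 CPM in normally-fed birds (log2 fold change -1.54, adjusted p = 0.0629 by edgeR's quasi-likelihood test). The macrophage models summed to 263 to 365 CPM in high-intake-fed and 349 to 421 CPM in normally-fed birds, and the endothelial ones to 97.6 to 110 CPM in high-intake-fed and 103 to 129 CPM in normally-fed birds. The stellate models summed to 43.8 to 79.5 CPM in high-intake-fed and 81.4 to 160 CPM in normally-fed birds. The biliary ones summed to 8.68 to 12.7 CPM in high-intake-fed and 11.7 to 16.9 CPM in normally-fed birds. No endothelial, stellate or biliary model was called by any of the 3 tests. Of the 2 stellate models, aortic smooth muscle actin lay wholly lower (log2 fold change -1.01) and was lower at the unadjusted p. Of the 2 biliary models, EPCAM lay wholly lower (-0.66). The part of these cell types in the change of BiP and of the cytosolic-type Hsp70 was not tested.

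**Figure D5:**
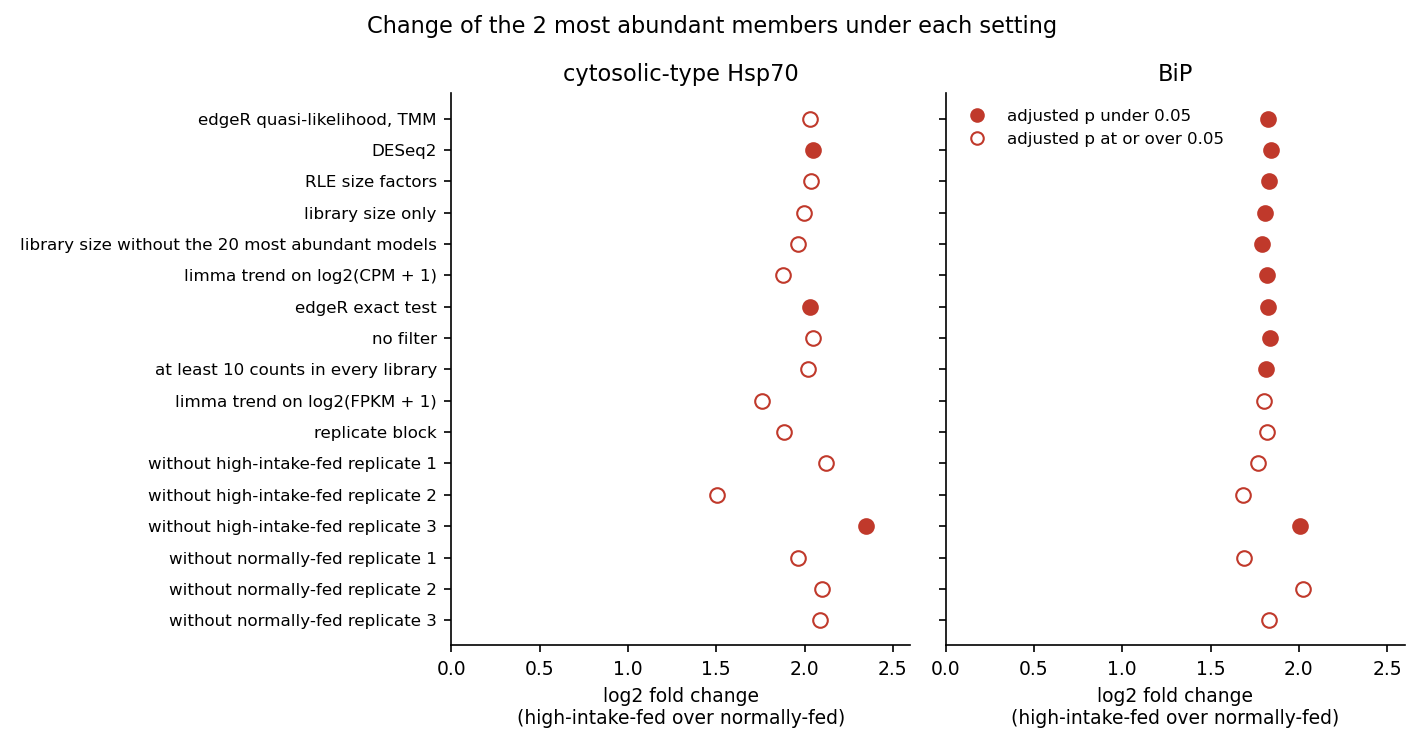
Log2 fold change of the cytosolic-type Hsp70 (left) and BiP (right), high-intake-fed over normally-fed, under edgeR's quasi-likelihood test and 16 alternatives, with filled symbols for an adjusted p under 0.05. The size of the change stays between 1.51 and 2.35 for the cytosolic-type Hsp70 and between 1.69 and 2.03 for BiP, and BiP is filled in 9 alternatives, the cytosolic-type Hsp70 in 3.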

How the data were processed

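Probes took out ribosomal RNA before library preparation. The authors filtered remaining ribosomal reads using Bowtie2, and HISAT2 aligned what was left to the goose genome. Deposited raw counts per gene model were tested here, and the FPKM deposited by the authors served as an alternative. The processing notes name FastQC and BWA. The build, annotation version, counting program and use of strand are not given in the sources used. Reads from near-identical Hsp70 copies may have been split or discarded. All lengths are multiples of 3, so they are coding lengths.

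Counts were tested with edgeR 4.0.16 in R 4.3.3 (quasi-likelihood test, TMM scaling, filterByExpr at 10 counts and a total of 15), 3 birds against 3, on the whole table, and the script was tested on simulated data. Differences between members used log2 CPM with a prior count of 0.5 and exact two-sided permutation tests. Alternatives were DESeq2 1.42.0, other scalings and filters, limma 3.58.1 on log2(CPM + 1) and log2(FPKM + 1), edgeR's exact test, the replicate number as a block and each bird left out. Birds left out leave a group of 2.

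Partner and marker lists were matched by words in the descriptions. All members were named, and the 3 models closest to each member. Of each partner list every called model up to 5 was named, and in any case the 3 with the smallest p. Of the marker lists only some models were named. Further named models were chosen after their values were seen. The members and lists were chosen with earlier results of these data known. P-values measure the spread between birds of 1 trial.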

Additional observations from a re-analysis of the deposited data

How the results depend on the processing

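The direction of BiP and of the cytosolic-type Hsp70 was the same under all 16 alternatives. BiP lost its call on log2(FPKM + 1) (log2 fold change 1.80, adjusted p = 0.0908) and with the replicate block (1.82, 0.133), and ranged from 1.69 to 2.03 with a bird left out. The cytosolic-type Hsp70 gained a call under DESeq2 (2.05, adjusted p = 3.51e-05) and edgeR's exact test (2.03, 0.00106), and ranged from 1.51 to 2.35 with a bird left out. Thus 2 members were called by DESeq2 and by the exact test, 0 on FPKM and with the block, and 0 to 2 with a bird left out. Over all mRNAs 190 were called, against 944 by DESeq2, 809 by the exact test, 335 without a filter, 55 on FPKM, 61 with the replicate block, and 30 to 511 with a bird left out, most of them without high-intake-fed replicate 3 and fewest without normally-fed replicate 3. Of the partners 1 was called, against 18 by DESeq2, 13 by the exact test, 6 without a filter, 3 with at least 10 counts in every library, 0 with library size only, without the 20 most abundant models, by limma on CPM or FPKM, or with the block, and 0 to 15 with a bird left out. The groups of 6 pairs of members did not overlap with other prior counts, on FPKM and with each bird left out, except without high-intake-fed replicate 3, which gave 7 pairs. In the replicate block 6 pairs had the same sign in all 3 same-numbered birds, and the order of the levels was the same in every bird under each. Same-numbered birds did not deviate together (correlations of -0.16, 0.03 and -0.18). With 3 birds a group this check cannot settle whether the numbers pair the birds, and the sample labels name no pairing. The cause of the lost and gained calls was not tested. The changes of the DnaK-type model, HSPA13 and HSPA14 did not pass with 3 birds a group, and the smallest change that could have passed was not determined.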
